A study of Mus musculus with 39 samples.

Results

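The libraries labelled M-myeloid-derived suppressor cells from APCmin/+ mice were compared between intestine and spleen. They are the 3 intestinal and the 3 splenic M libraries of the series, chosen by their titles, hence 6 of its 39 libraries. The series holds 13 groups of 3 libraries, made from sorts or single cells of bone marrow, spleen and intestine, and 3 of the other groups serve for comparison. These are the sorts labelled G-myeloid-derived suppressor cells from APCmin/+ intestine, the same G sorts from APCmin/+ spleen, and the libraries labelled as single cells of APCmin/+ intestine, called all intestinal cells. The titles of the libraries of all intestinal cells begin with StroInt, and the name used here follows their cell type label. Every group used here carries the APCmin/+ mutation, a truncating allele of the tumour suppressor Apc that gives rise to intestinal tumours in mice, so these comparisons hold no mouse with intact Apc. Libraries of other mice enter only the spread estimate of an alternative fit of all 39 libraries and the choice of genes for the correlations between libraries. The labels name no agent given to these mice. Neither their age nor the antibodies used for sorting, nor which stretch of gut was taken, is given in the sources used here. Whether the 3 libraries per group stem from separate mice is likewise not stated, so p-values cover only the spread among samples, which may be technical.

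Myeloid-derived suppressor cells are immature cells of the monocyte and neutrophil lineages that accumulate in cancer and restrain T cells. The monocytic kind resembles inflammatory monocytes, which carry Ly6C and the chemokine receptor CCR2 and enter tissue from blood. Its best known means of suppression in mice are arginase 1, which depletes arginine, and the inducible nitric oxide synthase, which makes nitric oxide. The spleen holds reserves of such cells, while the gut wall is rich in epithelium and in plasma cells that secrete IgA.

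Levels are the deposited TPM, transcript levels scaled for gene length and to a sum of 1000000 per library. Such values hold no read counts, so sequencing depth is not known and counting error could not be computed. In the 6 M libraries, 21941 to 24445 genes were above 0. Across genes, which are not independent replicates, the log2(TPM + 1) of intestinal M libraries correlated at r between 0.976 and 0.978 with each other, between 0.947 and 0.962 with all intestinal cells, and between 0.687 and 0.751 with splenic M libraries. Splenic M libraries correlated at r between 0.964 and 0.973 with each other. Mitochondrially encoded genes held 14.2, 8.95 and 8.19% of TPM in the intestinal M libraries, against 5.48, 4.03 and 3.68% in the splenic M libraries. Immunoglobulin genes held 16.9, 22.2 and 20.1% in the intestinal M libraries, against 9.92, 5.64 and 3.92% in the splenic M libraries. All 6 M libraries held Xist at 145.6 TPM or more and 4 Y-linked genes at a sum of 0.08 TPM or less. Libraries 1 and 2 of all intestinal cells had these Y-linked genes at 111 and 119.6 TPM and Xist at 0.44 and 0.22 TPM.

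The levels of cell type markers go against the label of the intestinal libraries. The 16 genes of the intestinal epithelium list summed to 10768, 11889 and 12095 TPM in the intestinal M libraries, against 12861 ± 2159 TPM (SD, n = 3) in all intestinal cells. Epcam, an adhesion protein of epithelial cells, had 832, 855 and 810.3 TPM in the intestinal M libraries, against 987, 789 and 808 TPM in all intestinal cells. The intestinal M libraries thus held epithelial transcripts at about the level of all intestinal cells. Of the monocyte genes, Ly6c2 was high, with 377, 467 and 476 TPM in the intestinal M libraries, against 29.6, 75.5 and 65.8 TPM in all intestinal cells. Ccr2 had 8.71, 11.3 and 9.01 TPM in the intestinal M libraries, against 2.15, 6.08 and 2.63 TPM in all intestinal cells, and Csf1r, the receptor for macrophage colony-stimulating factor, had 31.3, 31.3 and 58.9 TPM against 45.5, 73.6 and 34.7 TPM. The splenic M libraries held monocyte genes at a sum of 5265, 3870.1 and 9781 TPM, and they also held 16 mature neutrophil genes at a sum of 25212, 91039 and 68956 TPM, 14 mature B cell genes at 5802, 2357 and 2828 TPM and 14 erythroid genes at 24848, 23371 and 5555 TPM. The libraries are therefore called by their label, M, with no claim on the cells in them. In such mixed bulk samples, fewer cells of a type and less RNA per cell cannot be told apart, and tissue and cell makeup cannot be told apart in any difference between intestine and spleen.

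**Figure D1:**
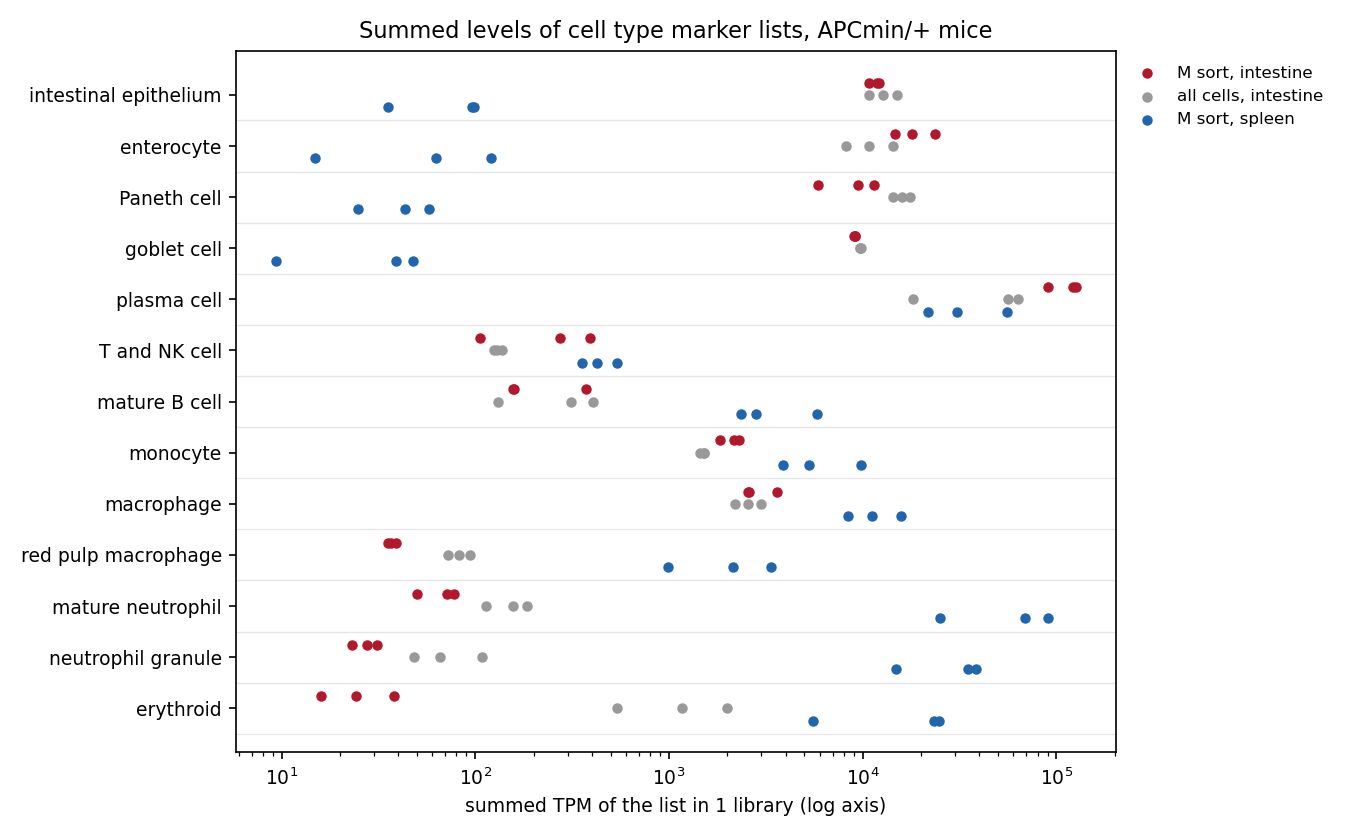
Summed TPM of 13 marker lists in each library (log axis), with 3 points per group for intestinal M sorts, all intestinal cells and splenic M sorts. The intestinal M libraries lie near all intestinal cells in the epithelial lists, above the splenic M libraries in the plasma cell list and below them in the neutrophil, B cell, red pulp macrophage and erythroid lists.

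Intestinal and splenic M libraries differed in 7029 of 14839 genes tested, which is 47.4%. A gene was tested if 3 or more of the 6 libraries reached 1 TPM, and called where the limma adjusted p (two-sided, Benjamini-Hochberg) was under 0.05 and the log2 fold change was 1 or more in size. Fold changes are on the log2(TPM + 1) scale, intestine minus spleen, given with ± their standard error, and they understate the change of genes at low TPM. Of all genes tested, 2479 (16.7%) were called higher and 4550 (30.7%) lower in intestine. The libraries of the groups did not overlap in 22.3% of genes with intestine higher and in 54.1% with intestine lower. The median over all genes was -0.58, so a list with a median near this value did not stand apart. Rescaling the libraries by the median ratio of genes that all of them held at 5 TPM or more moved the median to -0.01. It gave 5576 calls (37.6%), 3321 higher (22.4%) and 2255 lower (15.2%) in intestine. Taking out immunoglobulin and mitochondrial genes gave 6123 calls, 3049 higher and 3074 lower in intestine. Of the calls on TPM as deposited, 4734 stood after rescaling with the same direction. Calls on named genes that this scaling ends are given where the gene stands.

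**Figure D2:**
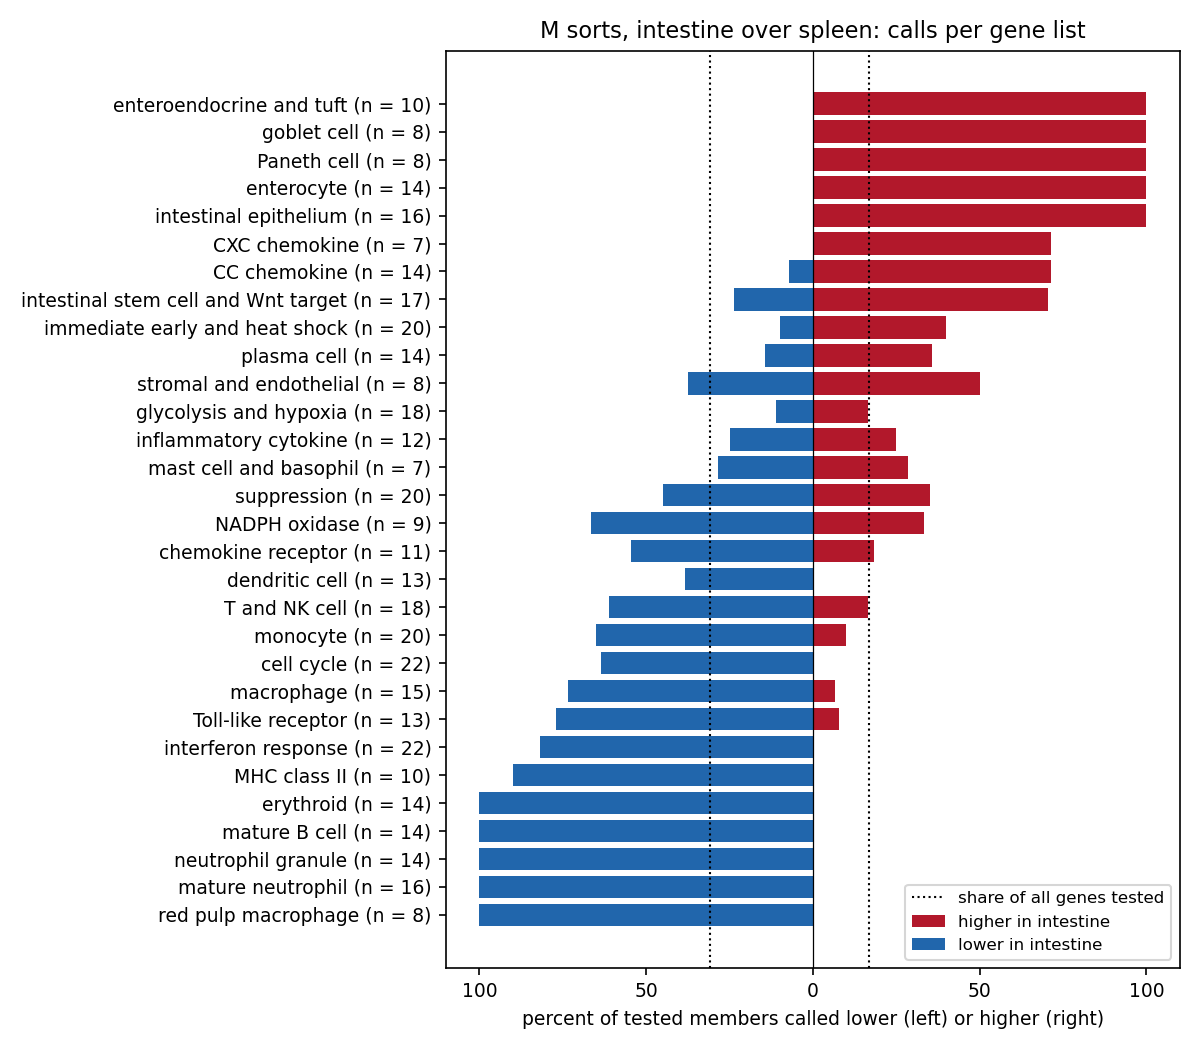
Percent of tested members of 30 gene lists called higher (right) or lower (left) in intestinal M libraries than in splenic M libraries, with the number tested beside each name. Dotted lines mark the shares over all genes tested, 16.7% higher and 30.7% lower; every member of the 5 epithelial lists was called higher and every member of the neutrophil, mature B cell, erythroid and red pulp macrophage lists lower.

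The genes that differed most in favour of intestine belong to its epithelium. All 16 epithelial, 14 enterocyte, 8 Paneth cell, 8 goblet cell and 10 enteroendocrine and tuft cell genes were called higher, with list medians of 7.12, 7.83, 7.20, 7.85 and 3.75. Fabp2, the fatty acid carrier of enterocytes, had 3942, 3684 and 2905 TPM in intestinal M libraries, against 18.1, 8.89 and 1.48 TPM in splenic M libraries (8.81 ± 0.67, limma adjusted p = 3.19e-05). Apoa1, an apolipoprotein that enterocytes put on lipoproteins, had 6043, 4029 and 3186 TPM in intestinal M libraries, against 29.0, 11.0 and 1.33 TPM in splenic M libraries (8.82 ± 0.84). Splenic M library 1 held the most and library 3 the least of each, and the groups were far apart.

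The largest fold changes also came from the defence genes of the gut. Defa23, an antimicrobial defensin of Paneth cells, had 324, 541 and 801 TPM in intestinal M libraries and was listed at 0 in all splenic M libraries. Defensins share nearly identical sequences, so the split of reads among them is uncertain. Reg3b, a lectin that kills bacteria, changed by 8.46 ± 0.70, Lypd8, which keeps bacteria off the epithelium, by 8.43 ± 0.49, and Sprr2a2, a small proline-rich protein of the epithelium, by 8.81 ± 0.61. Muc2, the main mucin of goblet cells, had 1237, 1670.3 and 1299 TPM in intestinal M libraries, against 8.14, 7.01 and 2.52 TPM in splenic M libraries (7.77 ± 0.36). Tff3, a trefoil peptide secreted with it, changed by 8.41 ± 0.53. Among the rarer cells, Chga, a granule protein of enteroendocrine cells, had 21.5, 19.7 and 35.7 TPM in intestinal M libraries, against 0.12, 0.12 and 0.03 TPM in splenic M libraries, and Trpm5, an ion channel of tuft cells, 17.6, 17.0 and 18.2 TPM against 0.5, 0.26 and 0.12 TPM. All intestinal cells held these genes too. Enterocyte genes summed to 18747 ± 4511 TPM in intestinal M libraries, against 11122 ± 3051 TPM in all intestinal cells, and Paneth cell genes to 8901 ± 2820.3 TPM in intestinal M libraries, against 15986 ± 1612 TPM in all intestinal cells (SD, n = 3 each).

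Stem cell and Wnt target genes were called higher in 12 of 17 and lower in 4 (median 2.84), against 16.7% higher and 30.7% lower over all genes. Loss of Apc is known to raise such genes, but every group compared here carries the APCmin/+ mutation, so its part was not tested. Lgr5, the receptor that marks crypt stem cells, had 8.08, 11.3 and 11.4 TPM in intestinal M libraries, against 0.34, 0.16 and 0.13 TPM in splenic M libraries (3.21 ± 0.19). Axin2, a feedback inhibitor of Wnt signalling, had 26.8, 35.3 and 43.8 TPM in intestinal M libraries, against 3.69, 2.28 and 2.72 TPM in splenic M libraries (3.21 ± 0.24). The Wnt inhibitor Notum, with 9.86, 18.9 and 28.6 TPM, and Nkd1, with 8.66, 21.0 and 23.1 TPM in intestinal M libraries, were at 0.16 TPM or less in every splenic M library. All intestinal cells had 38.5 ± 24.7 TPM of Notum and 16.5 ± 2.95 TPM of Lgr5 (SD, n = 3). The 4 members called lower were Cd44, a hyaluronan receptor of leukocytes and of crypt cells (-3.09 ± 0.24), the T cell factors Lef1 (-2.88 ± 0.28) and Tcf7 (-2.12 ± 0.39), and Myc (-1.28 ± 0.29), whose call ended on rescaling (-0.66).

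Of 20 monocyte genes tested, 13 were called lower and 2 higher in intestine (median -2.32), and 9 were called lower after rescaling. Chil3, a chitinase-like protein of inflammatory monocytes and neutrophils, had 16.5, 10.6 and 10.4 TPM in intestinal M libraries, against 1594, 1753 and 3256 TPM in splenic M libraries (-7.30 ± 0.31). Ccr2 had 8.71, 11.3 and 9.01 TPM in intestinal M libraries, against 89.9, 30.1 and 296 TPM in splenic M libraries (-3.15 ± 0.72, limma adjusted p = 0.00587). The intestinal values of Ccr2 lay close together, while the splenic ones spread over a wide range, with library 3 highest and library 2 lowest. Csf1r (-3.25 ± 0.56), S100a4 (-3.24 ± 0.71), F13a1 (-3.70 ± 0.61) and Treml4 (-4.09 ± 0.43) also fell.

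Ly6c2, which gives the Ly6C antigen used to define monocytic suppressor cells, did not pass. It had 377, 467 and 476 TPM in intestinal M libraries, against 523, 738 and 1158 TPM in splenic M libraries. The groups did not overlap, but the difference of -0.80 ± 0.30 (limma adjusted p = 0.0437) was under the fold minimum. It passed without splenic M library 1 (-1.08), and rescaling brought it to -0.16. Ly6c2 has a near-identical neighbour, Ly6c1, so reads may be split between them. The members called higher were Klf4, a transcription factor that goblet cells and enterocytes also express, and Ace, a peptidase of the enterocyte brush border and of monocytes. Klf4 had 71.3, 59.5 and 62.5 TPM in intestinal M libraries, against 11.0, 5.39 and 20.3 TPM in splenic M libraries (2.47 ± 0.40). Ace had 233, 96.4 and 164 TPM in intestinal M libraries, against 31.6, 7.46 and 81.2 TPM in splenic M libraries (2.46 ± 0.77). The call on Ace ended without intestinal M library 1 (2.16) or 3 (2.41). All intestinal cells had 124 ± 15.6 TPM of Klf4 and 106 ± 39.3 TPM of Ace (SD, n = 3).

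Macrophage genes were called lower in 11 of 15 and higher in 1 (median -2.75). Adgre1, which gives the F4/80 antigen, had 4.74, 4.6 and 8.62 TPM in intestinal M libraries, against 208, 50.5 and 127 TPM in splenic M libraries (-4.04 ± 0.50). Splenic M library 2 was the lowest of its group and yet far above all intestinal M libraries. The scavenger receptors Cd163 (-4.63 ± 0.46) and Mrc1 (-4.24 ± 0.49), the complement gene C1qc (-3.24 ± 0.54) and Lyz2, the lysozyme of myeloid cells (-4.55 ± 0.34), also fell. Lyz2 resembles the Paneth cell gene Lyz1, which had 746, 1267 and 1447 TPM in intestinal M libraries, so reads of the pair may be split with error. Selenop, a selenium carrier made by macrophages and by enterocytes, was the member called higher (2.24 ± 0.43).

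Genes of red pulp macrophages, the splenic cells that clear aged red cells, were all called lower, 8 of 8 (median -5.58). They summed to 35.3, 36.5 and 38.8 TPM in intestinal M libraries, against 3344, 993 and 2148 TPM in splenic M libraries. Spic, the transcription factor that these cells need, had 0.66, 0.22 and 0.18 TPM in intestinal M libraries, against 218, 47.9 and 118 TPM in splenic M libraries (-6.34 ± 0.50). Vcam1, an adhesion protein, changed by -7.37 ± 0.45, Cd5l, a secreted protein of tissue macrophages, by -6.89 ± 0.33, and Hmox1, which breaks down heme, by -6.18 ± 0.43. Splenic M library 1 was highest and library 2 lowest in each of these 4 genes. Dendritic cell genes were called lower in 5 of 13, against 30.7% of all genes tested. The count was 3 after rescaling, against 15.2% of all genes, and 3 without intestinal M library 1 or 2. Ccr7, which guides dendritic cells to lymph nodes, changed by -2.96 ± 0.35. Itgax, the integrin CD11c, had 19.2, 19.0 and 40.5 TPM in intestinal M libraries, against 26.3, 24.4 and 43.4 TPM in splenic M libraries, overlapped, and did not pass (-0.29 ± 0.35, limma adjusted p = 0.467), with the sign turned on rescaling (0.33).

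Neutrophil genes showed the largest differences in favour of spleen. All 16 mature neutrophil genes and all 14 granule genes were called lower in intestine (medians -6.22 and -6.75). S100a8, a subunit of calprotectin, had 10.1, 3.48 and 4.69 TPM in intestinal M libraries, against 9299.8, 32699.7 and 25437 TPM in splenic M libraries (-11.56 ± 0.52, limma adjusted p = 2.77e-06). Its partner S100a9 had 15.2, 4.41 and 6.64 TPM in intestinal M libraries, against 14392, 49752 and 38397 TPM in splenic M libraries (-11.75 ± 0.55). In both genes splenic M library 1 was the lowest of its group. The granule genes Ngp (-11.66 ± 0.39), Camp (-11.02 ± 0.36), which gives the antimicrobial cathelicidin, Ltf (-9.29 ± 0.40), lactoferrin, and Lcn2 (-9.23 ± 0.42), a siderophore-binding protein, fell alike. Cxcr2, the receptor by which neutrophils follow Cxcl2, had 0.4, 0.06 and 0.25 TPM in intestinal M libraries, against 55.5, 391 and 339 TPM in splenic M libraries (-7.32 ± 0.69). Elane, a protease of neutrophil precursors, had 0.09, 0 and 0.05 TPM in intestinal M libraries, against 4.11, 86.5 and 19.9 TPM in splenic M libraries (-4.33 ± 0.89). The splenic G libraries, the granulocytic sort of the same organ, averaged 20767 ± 16028 TPM of S100a8 and 565 ± 288 TPM of Cxcr2 (SD, n = 3). The 16 mature neutrophil genes summed to 61736 ± 33502 TPM in splenic M libraries, against 61336 ± 43426 TPM in splenic G libraries. The 14 granule genes summed to 29353 ± 12657 TPM in splenic M libraries, against 17809 ± 16391 TPM in splenic G libraries (SD, n = 3 each).

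Erythroid genes were called lower in 14 of 14 (median -5.42). Hba-a1, an alpha globin, had 8.79, 1.71 and 2.92 TPM in intestinal M libraries, against 5275, 5015 and 1146 TPM in splenic M libraries (-9.37 ± 0.69). Alas2, the first enzyme of heme synthesis in red cell precursors, had 0.25, 0.09 and 0.07 TPM in intestinal M libraries, against 134, 176 and 35.3 TPM in splenic M libraries (-6.39 ± 0.55). Splenic M library 3 held the least of each, and the globin copies share reads. All intestinal cells held more globin than the intestinal M libraries, with 238 ± 123 TPM of Hba-a1 (SD, n = 3).

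The antibody genes moved in opposite directions. Mature B cell genes were called lower in 14 of 14 (median -4.44), among them Cr2 (-5.14 ± 0.46), the complement receptor CD21, and Ms4a1 (-4.55 ± 0.51), which gives CD20. Ighm, the heavy chain of IgM, had 143, 176 and 319.9 TPM in intestinal M libraries, against 15129.9, 8095 and 5785 TPM in splenic M libraries (-5.47 ± 0.44). Igha, the heavy chain of IgA, had 38901, 52029 and 48277 TPM in intestinal M libraries, against 5294, 2111 and 1482 TPM in splenic M libraries (4.17 ± 0.53, limma adjusted p = 0.000407). Per length, the level of Igha exceeded that of Ighm in every intestinal M library, and the level of Ighm exceeded that of Igha in every splenic M library. Constant region genes share reads with each other, so these values carry that uncertainty.

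Jchain, the chain that joins IgA and IgM into polymers for transport across epithelium, followed Igha. It had 4463, 5411 and 4971 TPM in intestinal M libraries, against 1982, 1066 and 677 TPM in splenic M libraries (2.13 ± 0.40, limma adjusted p = 0.00243). The groups did not overlap, and splenic M library 1 was the highest of its group. Of 14 plasma cell genes, 5 were called higher and 2 lower (median 0.59), and after rescaling 9 were higher and 1 lower. Sdc1, syndecan 1, which plasma cells and epithelial cells carry, changed by 3.30 ± 0.35. Mzb1, an endoplasmic reticulum protein of antibody-secreting cells, had 78.0, 106 and 88.2 TPM in intestinal M libraries, against 193, 102 and 85.2 TPM in splenic M libraries. Its values overlapped and did not pass (-0.40 ± 0.31, limma adjusted p = 0.277), and the sign turned on rescaling (0.24). The transcriptional co-activator Pou2af1 fell by 1.33 on the log2 scale, a call that ended on rescaling (-0.70).

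A pair of chemokine receptors known from IgA plasma cells and their ligands, taken from other lists after their values were seen, are given here. Ccr10, the receptor for Ccl28, had 8.41, 7.75 and 8.81 TPM in intestinal M libraries, against 1.8, 0.94 and 0.8 TPM in splenic M libraries (2.12 ± 0.21). Ccr9, the receptor for Ccl25, had 7.99, 7.66 and 11.6 TPM in intestinal M libraries, against 2.49, 3.57 and 3.8 TPM in splenic M libraries (1.23 ± 0.23). The ligands are made by epithelium: Ccl25 had 491, 446 and 418 TPM in intestinal M libraries, against 12.1, 8.97 and 8.91 TPM in splenic M libraries (5.37 ± 0.17), and Ccl28 10.7, 13.2 and 14.1 TPM against 0.08, 0.06 and 0.04 TPM (3.68 ± 0.17). No splenic M library reached an intestinal one in these 4 genes.

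T and NK cell genes were called lower in 11 of 18 and higher in 3 (median -1.78). Cd8b1, a chain of CD8 on conventional killer T cells (-2.87 ± 0.40), and Il7r, the receptor for interleukin 7 (-2.48 ± 0.45), fell. Cd3e, a chain of the T cell receptor complex, had 14.2, 3.89 and 13.3 TPM in intestinal M libraries, against 13.8, 21.4 and 33.6 TPM in splenic M libraries, overlapped, and did not pass (-1.14 ± 0.50, limma adjusted p = 0.0729). It passed without splenic M library 1 (-1.45). The members called higher were Gzma (1.89 ± 0.59), Gzmb and Itgae. The call on Gzma ended without intestinal M library 1 (1.28) or 3 (1.90) or splenic M library 1 (1.55). Gzmb, granzyme B, a protease of killer cells, had 55.5, 10.4 and 27.3 TPM in intestinal M libraries, against 1.41, 2.99 and 4.1 TPM in splenic M libraries (2.85 ± 0.57), and Itgae, the integrin CD103 that binds E-cadherin, 14.0, 9.43 and 22.1 TPM against 2.1, 2.93 and 2.32 TPM (2.16 ± 0.30). Among mast cell genes the mucosal proteases Mcpt1 (5.16 ± 0.25) and Mcpt2 (4.02 ± 0.26) were higher, and they share sequence. The basophil protease Prss34 was listed at 0 in all intestinal M libraries, against 1.54, 30.4 and 6.27 TPM in splenic M libraries. Of 7 mast cell and basophil genes tested, 2 were called higher and 2 lower, against 16.7% higher and 30.7% lower over all genes. Stromal and endothelial genes, which mark connective tissue and vessels, were called higher in 4 of 8 and lower in 3 (1 lower after rescaling), and summed to 32, 33.4 and 40.9 TPM in intestinal M libraries, against 101, 52.0 and 68.6 TPM in splenic M libraries.

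Genes of T cell suppression split. Of 20 tested, 7 were called higher and 9 lower in intestine, with a median of -0.60 against -0.58 over all genes, and after rescaling 7 were higher and 5 lower. Arg1, arginase 1, on chromosome 10 at positions 24915221 to 24927484 (mm10, GENCODE), had 8.09, 8.18 and 5.69 TPM in intestinal M libraries, against 0.35, 0.08 and 0 TPM in splenic M libraries (2.86 ± 0.21, limma adjusted p = 2.57e-05). The intestinal M libraries were all above 5 TPM, and splenic M library 3 was listed at 0. Nos2, the inducible nitric oxide synthase, on chromosome 11 at positions 78920787 to 78960254, had 8.06, 36.1 and 8.3 TPM in intestinal M libraries, against 0.05, 0.33 and 0.11 TPM in splenic M libraries (3.66 ± 0.53, limma adjusted p = 0.000736). Intestinal M library 2 was several times above the other two, and the groups did not overlap.

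Epithelial genes (16 of 16 called higher) and plasma cell genes (5 of 14 called higher, 2 lower) differed between the same libraries, and their part in these differences was not tested. All intestinal cells had 2.13, 7.12 and 1.38 TPM of Arg1 and 24.5, 2.71 and 4.06 TPM of Nos2, and the difference of intestinal M libraries from them did not pass for Arg1 (1.07 ± 0.43, limma adjusted p = 0.122) or Nos2 (0.90 ± 0.82, limma adjusted p = 0.409). Arg2, the mitochondrial arginase, had 201, 146 and 160.2 TPM in intestinal M libraries, against 8.98, 57.4 and 49.7 TPM in splenic M libraries (2.44 ± 0.63). Ido1, which depletes tryptophan, had 15.6, 10.1 and 11.3 TPM in intestinal M libraries, against 0.22, 0.04 and 0.08 TPM in splenic M libraries (3.56 ± 0.20). Ptgs2, cyclooxygenase 2, the enzyme that leads to prostaglandin E2, had 11.6, 10.4 and 15.1 TPM in intestinal M libraries, against 0.57, 1.18 and 1.32 TPM in splenic M libraries (2.73 ± 0.23). Vegfa, the vessel growth factor, changed by 1.98 ± 0.37. In Arg2, Ido1, Ptgs2 and Vegfa every intestinal M library lay above every splenic one.

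The suppression genes called lower included surface molecules and secreted factors of leukocytes. Vsir, the checkpoint protein VISTA, had 20.0, 22.8 and 30.9 TPM in intestinal M libraries, against 278, 433 and 537 TPM in splenic M libraries (-4.00 ± 0.28). Cd84, an adhesion receptor used as a marker of suppressor cells (-4.22 ± 0.27), Wfdc17, a small secreted inhibitor (-4.06 ± 0.57), Entpd1, the ectonucleotidase CD39 (-3.02 ± 0.20), and Tgfb1, transforming growth factor beta 1 (-2.73 ± 0.34), also fell. Il4ra, the interleukin 4 receptor, fell by 1.61 on the log2 scale and was under the fold minimum after rescaling (-0.98). Cd274, the checkpoint ligand PD-L1, had 11.7, 13.7 and 19.9 TPM in intestinal M libraries, against 31.9, 17.0 and 25.6 TPM in splenic M libraries, overlapped, and did not pass (-0.67 ± 0.28, limma adjusted p = 0.065).

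**Figure D3:**
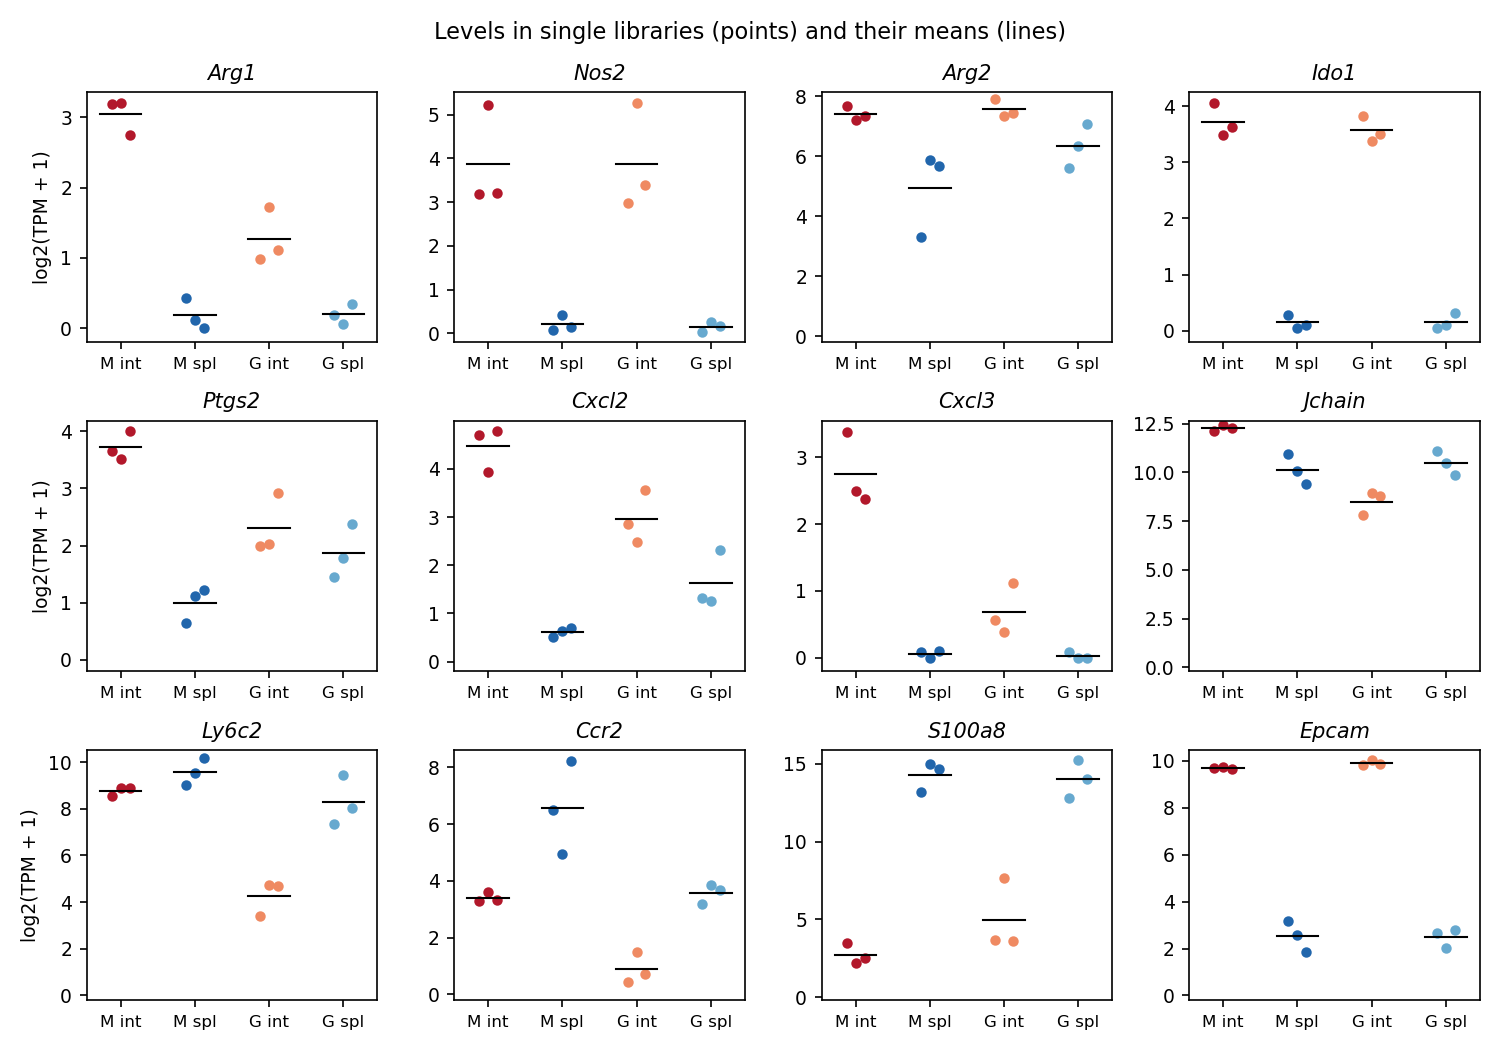
Levels of 12 genes as log2(TPM + 1) in each of 3 libraries (points) with the group mean (line), for M and G sorts of intestine (int) and spleen (spl). Arg1, Cxcl2, Cxcl3, Ptgs2 and Jchain were highest in intestinal M libraries, Nos2, Ido1 and Epcam were high in both intestinal sorts, and S100a8 and Ccr2 were higher in splenic M libraries than in intestinal ones.

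Cxcl2 and Cxcl3, chemokines that attract neutrophils, were higher in intestine. Cxcl2, a ligand of CXCR2, on chromosome 5 at positions 90903871 to 90905938, had 25.0, 14.4 and 26.5 TPM in intestinal M libraries, against 0.42, 0.55 and 0.63 TPM in splenic M libraries (3.86 ± 0.26, limma adjusted p = 1.67e-05). Cxcl3, a near relative that binds the same receptor, had 9.36, 4.63 and 4.19 TPM in intestinal M libraries, against 0.06, 0 and 0.07 TPM in splenic M libraries (2.69 ± 0.27, limma adjusted p = 0.000143). Every intestinal M library was above every splenic one in this pair of genes. Cxcl1 had 1.91, 0.76 and 1.92 TPM in intestinal M libraries, was listed at 0 in all splenic M libraries, and was not tested, since it reached 1 TPM in fewer than 3 libraries. Of 7 CXC chemokine genes tested, 5 were called higher, and 6 after rescaling, among them Cxcl16 (2.11 ± 0.28), which attracts T cells.

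The promoters of Cxcl2 and Cxcl3 are shown because the pair moved together. They are the 250 bases before the RefSeq start of each gene in GRCm38.p6, plus strand, at chr5:90903649-90903898 for Cxcl2 and chr5:90785851-90786100 for Cxcl3. Capitals mark matches to a motif of the kind that NF-kappaB binds, spelled GGG, any 2 bases, then TTTCC, and searched on both strands (on the other strand GGAAA, any 2 bases, then CCC). The RefSeq start of Cxcl2 lies inside the GENCODE gene given above.
Cxcl2: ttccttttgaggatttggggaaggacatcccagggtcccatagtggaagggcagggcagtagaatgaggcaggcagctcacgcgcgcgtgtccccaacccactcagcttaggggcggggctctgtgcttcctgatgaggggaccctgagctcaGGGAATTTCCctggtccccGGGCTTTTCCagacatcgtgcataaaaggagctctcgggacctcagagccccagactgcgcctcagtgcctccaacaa
Cxcl3: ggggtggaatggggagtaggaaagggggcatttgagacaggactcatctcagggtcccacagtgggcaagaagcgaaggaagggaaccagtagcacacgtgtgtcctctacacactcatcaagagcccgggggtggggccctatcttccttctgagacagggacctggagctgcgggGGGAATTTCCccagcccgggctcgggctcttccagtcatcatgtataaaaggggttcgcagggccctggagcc
Cxcl2 holds 2 matches, which do not overlap each other, and Cxcl3 holds 1. Both genes have the letters GGGAATTTCC, beginning 97 bases before the start in Cxcl2 and 73 bases before it in Cxcl3. In windows of this length the motif was found in 447 of 27025 genes, which is 1.65%. Of the 9 genes of the CXC chemokine list with a promoter in the table, 3 held it, the other one being Cxcl1. A match is a description of letters and not of binding.

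Of 14 CC chemokine genes, 10 were called higher and 1 lower in intestine (median 1.38). Beside Ccl25 and Ccl28, Ccl22, a ligand of CCR4 made by dendritic cells, had 4.99, 13.6 and 18.4 TPM in intestinal M libraries, against 1.0, 0.88 and 0.47 TPM in splenic M libraries (2.75 ± 0.42). Ccl17, which binds the same receptor, changed by 1.85 ± 0.34, and the inflammatory chemokines Ccl3 and Ccl4 by 1.43 ± 0.31 and 1.73 ± 0.29. Ccl4 had 11.0, 6.94 and 16.2 TPM in intestinal M libraries, against 2.63, 2.67 and 2.36 TPM in splenic M libraries. Chemokine receptors were called lower in 6 of 11. They included Ccr3, a receptor of eosinophils (-5.42 ± 0.47), Cxcr5, which guides B cells to follicles (-4.43 ± 0.49), Ccr6 (-3.05 ± 0.43), Ccr1 (-3.02 ± 0.56) and Cxcr4 (-2.94 ± 0.36), which retains cells in marrow. The 2 called higher were Ccr9 and Ccr10, described with the plasma cells.

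Of 12 inflammatory cytokine genes tested, 3 were called higher and 3 lower, against 16.7% higher and 30.7% lower over all genes. Without splenic M library 1, 6 were called lower. Areg, amphiregulin, a growth factor for epithelium, had 14.9, 16.9 and 18.5 TPM in intestinal M libraries, against 0.05, 0.1 and 0.06 TPM in splenic M libraries (4.05 ± 0.17). Il33, an alarm signal kept in the nucleus of barrier cells, had 7.79, 15.8 and 15.4 TPM in intestinal M libraries, against 0.04, 0.05 and 0.1 TPM in splenic M libraries (3.66 ± 0.27). Lif, leukaemia inhibitory factor, changed by 1.99 ± 0.14. All intestinal cells had 20.7 ± 1.11 TPM of Areg and 10.7 ± 3.28 TPM of Il33 (SD, n = 3). The members called lower were Csf1 (-3.01 ± 0.41), the growth factor of macrophages, Tnf (-1.72 ± 0.25) and Il27 (-1.92 ± 0.27). Il1b, interleukin 1 beta, had 107, 104 and 115 TPM in intestinal M libraries, against 97.4, 424 and 553 TPM in splenic M libraries and did not pass (-1.38 ± 0.59, limma adjusted p = 0.0694). Splenic M library 1 was the splenic library below the intestinal ones, and without it the gene passed (-2.15).

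Genes for enzymes that make reactive oxygen split. Subunits of the phagocyte NADPH oxidase fell, 6 of 9 genes tested, with Cybb, its catalytic subunit, at 25.7, 23.5 and 33.7 TPM in intestinal M libraries, against 408, 447 and 768 TPM in splenic M libraries (-4.20 ± 0.27). Ncf1 (-4.45 ± 0.36) and Rac2 (-4.19 ± 0.28), which assemble with it, changed by like amounts. The 3 genes called higher belong to oxidases of epithelium: Duox2 had 27.7, 42.4 and 37.9 TPM in intestinal M libraries, against 0.12, 0.12 and 0.01 TPM in splenic M libraries (5.07 ± 0.21), its maturation factor Duoxa2 changed by 4.49 ± 0.19, and Noxo1, the organiser of NOX1, by 3.78 ± 0.24. Toll-like receptor genes were called lower in 10 of 13, with the largest differences in Tlr8 (-3.73 ± 0.36), Tlr13 (-3.71 ± 0.34), Tlr7 (-3.66 ± 0.51), which sense RNA, and Tlr4 (-3.57 ± 0.21), which senses lipopolysaccharide. Tlr3, which senses double-stranded RNA, was the member called higher, with 19.7, 19.6 and 18.0 TPM in intestinal M libraries, against 8.28, 5.08 and 5.82 TPM in splenic M libraries (1.47 ± 0.20).

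Interferon response genes were called lower in 18 of 22 (median -1.60), and 10 were called lower after rescaling. Rsad2, viperin, changed by -3.56 ± 0.34, Ifit3 by -2.34 ± 0.29 and Gbp2 by -2.28 ± 0.29, while the call on Isg15 (-1.37 ± 0.17) ended on rescaling (-0.74). MHC class II genes were called lower in 9 of 10 (median -1.38), in 4 after rescaling, and in between 4 and 10 with 1 library left out, with 4 or 5 without intestinal M library 1 or 2 or splenic M library 1 or 3. H2-Ob, part of a complex that restrains peptide loading in B cells, had 13.3, 10.9 and 35.3 TPM in intestinal M libraries, against 352, 154 and 176 TPM in splenic M libraries (-3.54 ± 0.48). H2-DMb2, part of the complex that loads peptides, changed by -3.64 ± 0.52. H2-Aa, a chain of the antigen-presenting molecule itself, changed by -1.26 ± 0.43, overlapped, and lost its call on rescaling (-0.62) and without intestinal M library 1 or 2 (-1.10 and -1.01) or splenic M library 1 or 3 (-0.95 and -1.32).

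Cell cycle genes were called lower in 14 of 22 (median -1.14), in 5 after rescaling, and in 8 without intestinal M library 1 and 7 without splenic M library 2. Mki67, a protein of dividing cells, had 21.6, 28.7 and 40.0 TPM in intestinal M libraries, against 81.1, 161 and 75.3 TPM in splenic M libraries (-1.74 ± 0.34). Rrm2, which makes deoxynucleotides, changed by -2.21 ± 0.35. Splenic M library 2 was the highest of its group in both. Immediate early and heat shock genes were called higher in 8 of 20 and lower in 2 (median 0.70). Fosb had 168, 198 and 239 TPM in intestinal M libraries, against 2.17, 1.22 and 3.23 TPM in splenic M libraries (6.02 ± 0.26), and Fos (3.62 ± 0.39), Jun (4.23 ± 0.21), Egr1 (4.40 ± 0.30) and Atf3 (2.97 ± 0.43), all of which respond to stimuli and to tissue handling, were also higher. All intestinal cells had 181 ± 40.9 TPM of Fosb (SD, n = 3), and the part of tissue handling was not tested. Klf2, a quiescence factor of leukocytes, fell by 3.21 on the log2 scale. Of 18 glycolysis and hypoxia genes, 3 were called higher and 2 lower (median -0.45), against 16.7% higher and 30.7% lower over all genes tested. The called genes included Pfkp (1.52 ± 0.17), a phosphofructokinase, Egln3 (1.70 ± 0.49), an oxygen sensor, and Pfkfb3 (-1.72 ± 0.22), which drives glycolysis.

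Whether the tissue difference was particular to the M sorts was tested against the G sorts of the same organs. The difference of the tissue contrasts, M minus G, passed for 377 of 16029 genes (2.35%), 170 above 0 (1.06%) and 207 below 0 (1.29%), by limma over these 12 libraries. Equally numbered M and G libraries of a tissue deviated together, and with the number as a block within each tissue 1775 genes (11.1%) passed, 774 above 0 (4.83%) and 1001 below 0 (6.24%), all 377 among them. The count without 1 library was 860 without splenic G library 1, and 141, 71, 95, 72, 83, 93 and 176 without intestinal G library 1, 2 or 3, splenic G library 3, or intestinal M library 1, 2 or 3. Rescaling gave 570 calls above 0 and 75 below 0. In these fits, which held no block, the count thus depended on single libraries and on the scaling. The fit with the block within each tissue was not repeated with a library left out or after rescaling. Immunoglobulin genes held 16.9, 22.2 and 20.1% of TPM in the intestinal M libraries, against 0.831, 1.87 and 1.67% in the intestinal G libraries, and epithelial genes summed to 11584 ± 714 TPM in the M libraries, against 13812 ± 1022 TPM in the G libraries (SD, n = 3 each).

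Plasma cell genes were among those above 0. Of 14 tested, 8 passed, each above 0 (median 2.86, against -0.28 over all genes), and 10 with the block. The intestine minus spleen difference of Igha was 4.17 in M sorts and -0.03 in G sorts, a difference of 4.20 ± 0.69 (limma adjusted p = 0.0194). That of Jchain was 2.13 in M sorts and -1.97 in G sorts, a difference of 4.10 ± 0.60 (limma adjusted p = 0.0114). Jchain had 4463, 5411 and 4971 TPM in intestinal M libraries, against 220.0, 488 and 437 TPM in intestinal G libraries. Mzb1 (3.58 ± 0.56), Pou2af1 (3.26 ± 0.55) and Lax1 (3.31 ± 0.50), an adaptor of lymphocyte signalling, also passed above 0, as did Ccr9 (1.77 ± 0.28) and Ccr10 (2.10 ± 0.39). Igha, Jchain, Mzb1, Lax1 and Ccr9 passed with any 1 of the 12 libraries left out, Pou2af1 in all but the fit without splenic G library 3 (3.21), and Ccr10 in 6 of these 12 fits (1.84 to 2.42), not in those without an intestinal library. Within the M sorts alone, Mzb1 did not pass between the tissues, and Pou2af1 and Lax1 were called lower in intestine. Rescaling ended those calls (-0.70 and -0.44), as did removal of immunoglobulin and mitochondrial genes (-0.98 and -0.73). The call on Lax1 also ended without intestinal M library 1 (-0.98) or splenic M library 1 (-0.78).

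Of the suppression list 4 of 21 genes passed and of the monocyte list 1 of 20, each above 0, against 1.06% of all genes. With the block, 8 suppression genes passed above 0 and 0 below, while 2 monocyte genes passed above 0 and 4 below. The shares over all genes with the block were 4.83% above 0 and 6.24% below. The monocyte list had a median of -0.35, against -0.28 over all genes, so it had no lean towards M above G. Of 14 neutrophil granule genes 1 passed, below 0, and 5 with the block, each below 0. Slpi, a protease inhibitor of neutrophils and epithelium, differed between the tissues by -3.26 in M sorts and by -6.46 in G sorts (3.19 ± 0.39, limma adjusted p = 0.00458), and passed in all 12 such fits. Ly6c2 differed between the tissues by -0.80 in M sorts and by -4.01 in G sorts (3.21 ± 0.72, limma adjusted p = 0.0456), with 377, 467 and 476 TPM in intestinal M libraries and 9.45, 25.9 and 24.6 TPM in intestinal G libraries. That call stood without splenic G library 1 or splenic M library 3 and ended in the other 10 of the 12 fits, with values between 2.62 and 3.68 over all 12. Arg1 differed between the tissues by 2.86 in M sorts and by 1.07 in G sorts (1.79 ± 0.31), Cxcl2 by 3.86 and 1.34 (2.52 ± 0.49), Cxcl3 by 2.69 and 0.66 (2.03 ± 0.37) and Ptgs2 by 2.73 and 0.45 (2.28 ± 0.43). The call on Arg1 ended without intestinal G library 3, splenic G library 3 or intestinal M library 1 or 2 (1.71 in each fit), and that on Cxcl3 without intestinal G library 1 or 2 (1.96 and 1.87) or splenic G library 3 (2.04). The call on Cxcl2 ended without intestinal G library 1 or 2 (2.47 and 2.28), splenic G library 3 (2.17) or intestinal M library 1 or 3 (2.41 and 2.37). That on Ptgs2 ended without intestinal G library 1 or 2 (2.13 and 2.14), splenic G library 3 (2.03) or any intestinal M library (2.14 to 2.39). With a pseudocount of 0.1 the calls on Arg1 (2.51), Cxcl3 (2.86), Ccr10 (2.58) and, below 0, Fcnb (-4.21) ended. Cd274 (2.32 ± 0.44), Ccl4 (1.84 ± 0.35) and Entpd1 (1.98 ± 0.44) also passed with M above G, in 6, 8 and 2 of the 12 fits, with values of 2.08 to 2.58, 1.56 to 2.12 and 1.62 to 2.25. The tissue difference of Cd274 and of Entpd1 was below 0 in both sorts. Nos2 differed between the tissues by 3.66 in M sorts and by 3.72 in G sorts, and the difference did not pass (-0.06 ± 0.84, limma adjusted p = 0.968).

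The differences below 0 held cell cycle genes, 4 of 22 called and 22 with the block (median -1.77). Top2a, a topoisomerase of dividing cells, had 41.7, 57.5 and 77.2 TPM in intestinal M libraries, against 98.4, 198 and 103 TPM in splenic M libraries, and 75.0, 98.0 and 100.5 TPM in intestinal G libraries, against 50.7, 58.9 and 27.1 TPM in splenic G libraries (-2.18 ± 0.48, limma adjusted p = 0.0432). The tissue order was thus opposite in the sorts. Its tissue call within the M sorts (-1.13 ± 0.33) ended on rescaling (-0.50) and without intestinal M library 1 (-0.91) or splenic M library 2 (-0.81), and the difference was lost on rescaling (-1.78). Ube2c, which drives exit from mitosis, passed as well (-2.20 ± 0.45). Fcnb, ficolin B, of monocyte and neutrophil precursors, passed too (-3.26 ± 0.61), with 84.9, 79.5 and 144 TPM in splenic M libraries and 7.58, 26.8 and 10.9 TPM in splenic G libraries. So did Lyz1, the Paneth cell lysozyme (-1.92 ± 0.40), with 746, 1267 and 1447 TPM in intestinal M libraries and 1764, 2595 and 2771 TPM in intestinal G libraries. The calls on Top2a, Ube2c, Fcnb and Lyz1 stood in 5, 6, 6 and 5 of the 12 fits, and each ended without splenic G library 3 (-1.85, -1.83, -3.14 and -2.14).

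**Figure D4:**
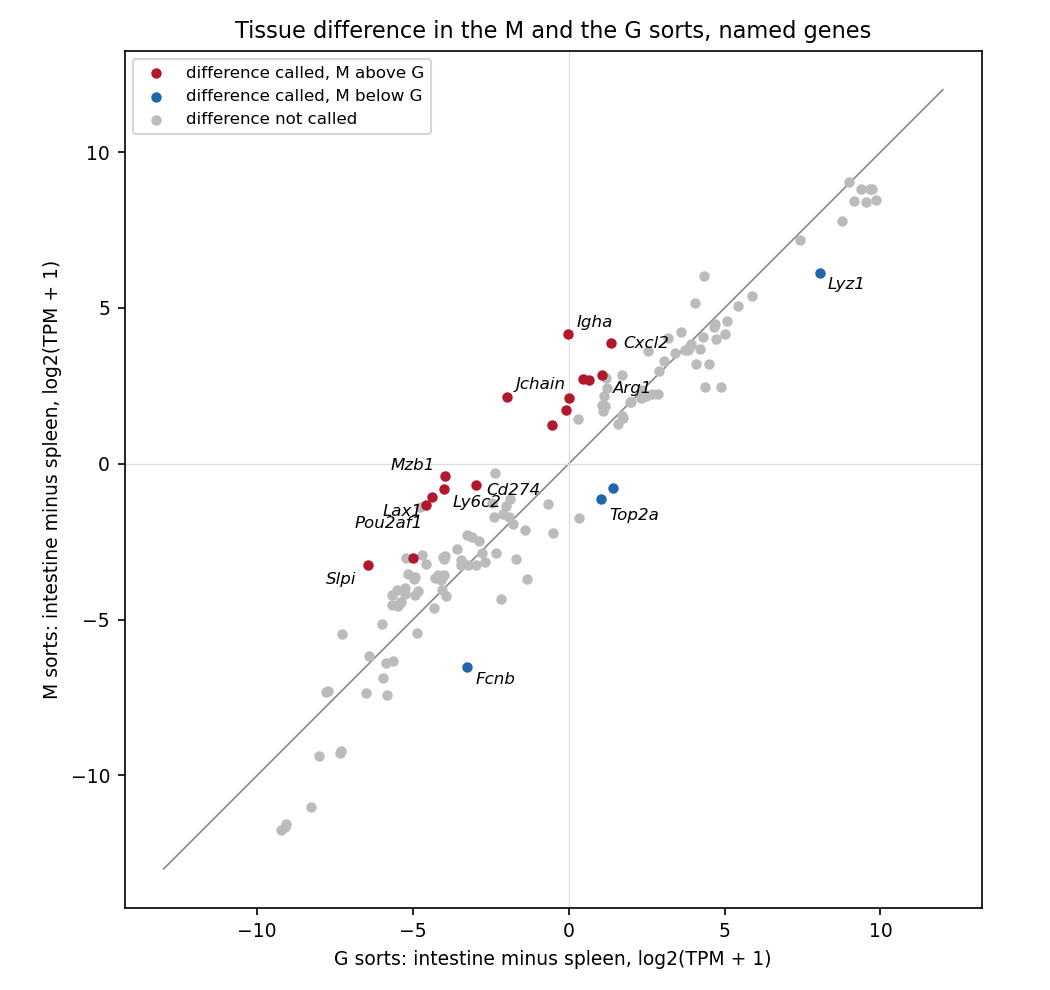
Difference between intestine and spleen in mean log2(TPM + 1) of M sorts (vertical) and of G sorts (horizontal) for the 143 genes tested that are described in the text, with the line of equal values. For 16 genes the difference of the contrasts passed with M above G and for 4 with M below G.

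The intestinal M libraries were last set against all intestinal cells, the libraries of the same organ made without the M gate per the labels. By limma, 534 of 14677 genes were called (3.64%), 54 higher (0.368%) and 480 lower (3.27%) in M libraries, with a median of -0.30. Ly6c2 had the largest difference in favour of M libraries among the genes named here, with 377, 467 and 476 TPM in intestinal M libraries, against 29.6, 75.5 and 65.8 TPM in all intestinal cells (3.03 ± 0.33, limma adjusted p = 0.00372). S100a4, a calcium-binding protein of migrating monocytes, had 23.1, 24.6 and 25.1 TPM in intestinal M libraries, against 1.77, 8.78 and 4.75 TPM in all intestinal cells (2.23 ± 0.41). With Chil3 (2.58 ± 0.31) and Ccr2 (1.29 ± 0.31) among them, 5 of 20 monocyte genes were called higher. Ido1 (2.01 ± 0.29), Cxcl3 (1.55 ± 0.36) and Fabp2 (1.30 ± 0.26) were also higher. The calls on Ly6c2 and Chil3 stood with any 1 of the 6 libraries left out. That on Ido1 ended without intestinal M library 1, and that on S100a4 without intestinal M library 1 or 2 or library 3 of all cells. The calls on Ccr2, Cxcl3 and Fabp2 each stood in 1 of these 6 fits, and rescaling ended those on Ccr2 (1.54) and Cxcl3 (1.76).

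None of the 16 epithelial, 14 plasma cell or 18 stem cell and Wnt genes was called by limma in that comparison, against 3.64% of all genes. At that share lists of this length hold few calls, so their absence does not show equal levels. By limma 3, 0 and 9 of them had an unadjusted p under 0.05, against 5567 of all 14677 genes. The stem cell and Wnt list had a median of -0.65, against -0.30 over all genes. The plasma cell list had a median of 0.73 and summed to 91049, 125637 and 122147 TPM in intestinal M libraries, against 18182, 63382 and 56009 TPM in all intestinal cells, without overlap. The largest differences in favour of all cells were in Car1, a carbonic anhydrase of colon and of red cells, with 0.28, 0.33 and 0.34 TPM in intestinal M libraries, against 1608, 755 and 1181 TPM in all intestinal cells (-9.74 ± 0.25), and in Saa1 (-6.78 ± 0.21), Mptx1 (-6.68 ± 0.32), Tgm3 (-6.43 ± 0.22), Sycn (-5.93 ± 0.51), Cyp2d34 (-5.92 ± 0.20) and Aqp8 (-5.61 ± 0.40). Aqp8, a water channel of the colon surface, had 3.71, 0.47 and 1.19 TPM in intestinal M libraries, against 152, 105 and 109 TPM in all intestinal cells. Erythroid genes were called lower in 5 of 5 tested. Of 12 stromal and endothelial genes tested, 4 were called lower, against 3.27% of all genes. That list summed to 35.4 ± 4.79 TPM in intestinal M libraries, against 179 ± 108 TPM in all intestinal cells (SD, n = 3 each). The stretch of gut is not given for either group, libraries 1 and 2 of all cells differ from the M libraries in Xist and Y-linked genes, and the part of both in this comparison was not tested. Leaving out 1 library gave 285 calls without intestinal M library 1, 299 without intestinal M library 2, 272 without library 3 of all cells, and between 430 and 704 otherwise.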

How the data were processed

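RNA was measured in 39 libraries, of which 15 enter here. Per the labels' protocols, sorts went into Trizol, a TruSeq stranded mRNA kit was used, and single reads came from a NextSeq 500. The authors deposited TPM per gene, and the submitters' processing notes name bcl2fastq 2.18, STAR 2.6.1c, RSEM and the genome build mm10. How reads shared by near-identical genes were split is not given in the sources used here. TPM are shares of a library, so abundant transcripts lower all others.

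Of 53465 genes, 26 had symbols turned into dates and restored, and 53274 identifiers matched a gene name. No library pair held identical values. Values were tested as log2(TPM + 1) with limma 3.58.1 in R 4.3.3, with an intensity trend, over the libraries of each comparison, for genes with 1 TPM or more in 3 or more libraries, at an adjusted p of 0.05 and a log2 fold change of 1. The fit was tested on simulated data. Tables and plots were made with Python 3.11.15, pandas 2.3.3, numpy 2.4.6 and matplotlib 3.10.9. Alternatives were a pseudocount of 0.1, no filter or a filter at 5 TPM, no fold minimum, rescaling by median ratios, a fit of all 39 libraries, a replicate block, removal of 434 immunoglobulin and mitochondrial genes, and each library left out. A block within each tissue for the M minus G comparison was added after seeing the data.

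Same-numbered M and G libraries correlated in their deviations from the group means at r = 0.678, 0.512 and 0.627 in intestine and 0.634, 0.415 and 0.476 in spleen, so their numbers were taken to pair them. The members, the lists and the tests were chosen with earlier results of these data known. Named genes are Arg1, Nos2, Cxcl2 and Jchain, the 12 largest and 12 smallest called fold changes without overlap among genes at 20 TPM or more, up to 6 members per list by size of change at 5 TPM or more with the first member of each list, and the 8 largest and smallest of the other comparisons. Not all of these are printed, and other members named were chosen after their values were seen. Itgam and Ccl19 are not analysed here, and a few other genes are not reported here.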

Additional observations from a re-analysis of the deposited data

Results flagged for a closer look

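For 20 of the genes described in the text the difference between intestine and spleen differed between M and G sorts by limma's test of the difference itself, over 12 libraries. Those with M above G on the log2 scale were Igha (4.20), Jchain (4.10), Mzb1 (3.58), Lax1 (3.31) and Pou2af1 (3.26) of plasma cells and other lymphocytes, the receptors Ccr10 (2.10) and Ccr9 (1.77), Ly6c2 (3.21) and Slpi (3.19), the suppression genes Cd274 (2.32), Ptgs2 (2.28), Entpd1 (1.98) and Arg1 (1.79), and the chemokines Cxcl2 (2.52), Cxcl3 (2.03) and Ccl4 (1.84). Those with M below G were Fcnb (-3.26), Ube2c (-2.20), Top2a (-2.18) and Lyz1 (-1.92). All 20 passed again with the replicate number as a block within each tissue, while a pseudocount of 0.1 ended the calls on Arg1 (2.51), Cxcl3 (2.86), Ccr10 (2.58) and Fcnb (-4.21). With 1 of the 12 libraries left out and no block, 6 of the 20 passed in each fit, namely Igha, Jchain, Mzb1, Lax1, Ccr9 and Slpi.

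The sign was the same in M and G sorts for Arg1, Cxcl2, Cxcl3 and Ptgs2, above 0 in both. It was above 0 in M and below 0 in G sorts for Jchain, Igha, Ccr9 (1.23 and -0.55) and Ccl4 (1.73 and -0.11). In G sorts Igha and Ccl4 lay close to 0. For Top2a and Ube2c it was below 0 in M and above 0 in G sorts. On TPM as deposited it was below 0 in both sorts for Cd274 (-0.67 in M and -2.99 in G), Entpd1, Ly6c2, Slpi, Mzb1, Pou2af1 and Lax1. For these genes M above G was a smaller fall in M sorts and not a rise in intestine. Jchain averaged 4948 ± 474 TPM in intestinal and 1242 ± 670.4 TPM in splenic M libraries, and 382 ± 142 TPM in intestinal and 1506 ± 633 TPM in splenic G libraries (SD, n = 3 each). Arg1 averaged 7.32 ± 1.41 TPM in intestinal and 0.143 ± 0.183 TPM in splenic M libraries, and 1.48 ± 0.710 TPM in intestinal and 0.15 ± 0.115 TPM in splenic G libraries (SD, n = 3 each).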

How the results depend on the processing

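For M sorts of intestine over spleen, no fold minimum gave 10619 calls, 7488 lower, and rescaling gave 2255 lower. Of the calls, 35.3% were higher in intestine as deposited, 59.6% after rescaling and 49.8% without immunoglobulin and mitochondrial genes. Leaving out 1 library gave 6365 to 7421 calls, 2403 to 2517 higher and 3887 to 5018 lower. Same-numbered M libraries of intestine and spleen correlated in their deviations at r = 0.039, 0.104 and 0.046, against -0.058 to 0.016 for unlike numbers. Values this low cannot decide whether the numbers pair them across the organs. A replicate block gave 7072 calls. Of 142 genes described in the text, rescaling turned the sign of Itgax (0.33) and Mzb1 (0.24) and ended 7 calls. Removal of immunoglobulin and mitochondrial genes, which took out Jchain, Igha and Ighm and left 139, turned Itgax (0.053) and ended 5. A pseudocount of 0.1 changed none of these calls, but ended the M minus G calls on Arg1 (2.51), Cxcl3 (2.86), Ccr10 (2.58) and Fcnb (-4.21).

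For M minus G, the calls numbered 1602 in the fit of all 39 libraries (675 higher, 927 lower), 91 with no filter (54 and 37), 687 with a replicate block (373 and 314), 1775 with the block within tissue (774 and 1001) and 645 after rescaling (570 and 75), where 88.4% were higher against 45.1% as deposited. The block gave higher counts of calls in this comparison. Leaving out 1 library, without a block, gave 71 to 860 calls, 60 to 199 higher and 8 to 661 lower.

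For intestinal M sorts over all intestinal cells, no filter gave 294 calls (10 higher, 284 lower), no fold minimum 1280 (84 and 1196), rescaling 286 (244 lower), and the fit of all 39 libraries 141 higher. Leaving out 1 library gave 272 to 704 calls, 19 to 76 higher and 246 to 628 lower. The causes were not tested. TPM leave the depth unknown, so changes of genes below about 1 TPM could not be judged. With 3 libraries per group and no block, the M minus G calls changed with most single libraries. Whether they do so with the block within tissue was not tested.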
